A study of Homo sapiens with 9 samples.

Results

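The RNAs encoded by the mitochondrial genome itself were followed through nuclear and cytoplasmic fractions of a human cell line, with and without RNAi against the m6A methylase subunits WTAP and KIAA1429. Members were all genes whose symbol starts with MT-, which gave 37 genes on chromosome M: 13 mRNAs, 2 rRNAs and 22 tRNAs, of 56349 genes with a matched transcript in the files. Membership was fixed by the symbol alone and used no measured value, although the class was chosen with earlier results of these data known. Of the 37, all 13 mRNAs, both rRNAs and 14 tRNAs had 10 or more estimated counts in 3 or more samples and were among the 16181 genes tested. The other 8 tRNAs (MT-TV, MT-TM, MT-TW, MT-TK, MT-TG, MT-TR, MT-TS2 and MT-TL2) did not and held between 0 and 14 counts per sample.

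The cells were labelled HEK293, a human embryonic kidney line, and the study's methods name its derivative that carries the SV40 T antigen. They were transfected with siRNAs at 10 nM for 72 h, with a further transfection at 48 h. The control groups received a control siRNA, and the RNAi groups received siRNAs against both KIAA1429 (also named VIRMA, and Virilizer in the labels) and WTAP. Cells were separated into nuclear and cytoplasmic fractions, and sequencing libraries were made from the RNA of each fraction with a kit for mRNA. The samples were 3 control nuclear, 3 RNAi nuclear, 1 control cytoplasmic (replicate 2) and 2 RNAi cytoplasmic (replicates 1 and 2), and the other cytoplasmic replicates were not analysed here. The labels do not say whether replicates were separate cultures, so p-values measure only the spread between these samples. The study compared these fractions to ask how loss of the methylase subunits affects the nuclear/cytoplasmic ratio of RNAs. The mitochondrial RNAs are made inside mitochondria, outside the nucleus, and do not pass through nuclear export.

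Human mitochondria carry a small circular genome that is transcribed from both strands into long precursors, in which tRNA genes lie between most of the mRNA and rRNA genes and mark where the precursors are cut. The mRNAs encode core subunits of the respiratory chain and of ATP synthase: the MT-ND genes those of complex I, MT-CYB that of complex III, the MT-CO genes those of complex IV (cytochrome c oxidase) and MT-ATP6 and MT-ATP8 those of complex V. They are read by the mitochondrial ribosome, whose rRNAs are MT-RNR1 and MT-RNR2. Most mitochondrial mRNAs receive a short poly(A) tail, which in several of them completes the stop codon.

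The 37 genes cover most of a genome of 16569 bases (GRCh37), and in all 37 the transcript length in the files equalled that of the annotation. Adjacent genes often abut or share bases, which bears on how a read is assigned. The ends of 5 mRNAs whose proportions differed between the fractions are shown on the strand of the gene, with the bases of the complete or partial stop codon in capitals. MT-CO1, MT-CYB and MT-ND6 took larger shares of the mitochondrial mRNA counts in the nuclear fraction, and MT-ND2 and MT-ND3 smaller ones.
MT-CO1 (chrM:7422-7445, plus strand): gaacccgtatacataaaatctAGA
MT-CYB (chrM:15864-15887, plus strand): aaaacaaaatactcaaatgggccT
MT-ND6 (chrM:14149-14172, minus strand): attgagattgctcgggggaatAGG
MT-ND2 (chrM:5488-5511, plus strand): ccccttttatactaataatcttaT
MT-ND3 (chrM:10381-10404, plus strand): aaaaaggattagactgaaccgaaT
Of the 13 mRNA genes, 7 ended in a complete stop codon of the mitochondrial code and 6 in part of one, 5 in a single T and MT-ND1 in TA.
MT-ATP8 and MT-ATP6 share 46 bases, and MT-ND4L and MT-ND4 share 7, so a read in the shared bases can be given to either gene. The windows below are shown because the ratio of counts within each pair was apart in 1 nuclear sample. In the first, capitals mark the start codon of MT-ATP6 inside MT-ATP8, and in the second all bases that MT-ND4L and MT-ND4 share, which hold the start codon of MT-ND4 and the stop codon of MT-ND4L.
MT-ATP8/MT-ATP6 (chrM:8515-8541, plus strand): ctgagaaccaaaATGaacgaaaatctg
MT-ND4L/MT-ND4 (chrM:10750-10776, plus strand): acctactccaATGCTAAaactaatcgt
MT-ND6 and 8 tRNAs lie on the minus strand of this genome and the other members on the plus strand. Whether strand was used in counting is not given in the sources used here, so reads of a gene and of RNA from the opposite strand cannot be told apart.

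Libraries held between 11627403 and 19036141 estimated counts, of which 83.07% to 88.31% could be assigned to a gene. WTAP CPM (counts scaled to a common library size after TMM, a correction for library composition) were 24.9 ± 2.40 (SD, n = 3) in control nuclei and 14.02 ± 1.67 (n = 3) in RNAi nuclei, and VIRMA was 15.5 ± 3.73 against 7.24 ± 1.82. Both targets fell in the nucleus (edgeR quasi-likelihood test, FDR 0.0169 and 0.0314) and in the cytoplasm, where WTAP was 37.5 CPM in the single control sample and 10.8 and 11.9 after RNAi. The summed CPM of the 4 tested nuclear RNA markers (MALAT1, NEAT1, KCNQ1OT1 and SNHG14) ranged from 255.5 to 420.1 in the 6 nuclear samples and from 19.7 to 33.3 in the 3 cytoplasmic ones. The 5 cytoplasmic mRNA markers summed to between 6694 and 7564 CPM in nuclear samples and between 11900 and 14830 in cytoplasmic ones. Most of this sum was GAPDH and EEF1A1, at 5756 and 4060 CPM in the control cytoplasm. RPS3 overlapped, at 254.6 to 349.8 CPM in nuclei and 294.0 in the control cytoplasm. The fitted nuclear over cytoplasmic difference was negative for 4 of the 5 markers in control cells and for all 5 in RNAi cells. MEG3, listed as a nuclear marker too, had at most 2.3 counts. Of the cell line's own markers, NEFM, LIN28B and PAX2 were past the filter, and NEFL was not among the matched genes. In RNAi against control nuclei NEFM was called higher (log2 fold change 0.62, SE 0.16, edgeR FDR 0.0584), with LIN28B at -0.03 and PAX2 at -0.31. Against the single control cytoplasmic sample NEFM was at 0.95, LIN28B at -1.31 and PAX2 at 0.10. Of 4 markers of other cell types, HBB of red cells was at 0, PTPRC and ALB did not exceed 3.03 counts, and COL1A1, a collagen of fibroblasts, had 56.5 to 91.5 CPM in the 9 samples. COL1A1 was called higher in the RNAi cytoplasm, at 91.5 and 79.9 CPM against 56.5 in the single control sample (0.60, SE 0.13, FDR 0.0126), and its part in the cytoplasmic results was not tested. Control nuclear replicate 2 had the lowest MALAT1 of the nuclear samples (88.3 CPM, the other 5 between 155.1 and 199.4). Its NEAT1 was the highest of the control nuclei, at 143.7 CPM against 121.4 and 136.5. A group of 3 cannot be checked for an outlier, so results that this sample moved are given with it and also without it.

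Mitochondrially encoded RNAs took a large and variable part of every library. In the control nuclear samples they held 30.7%, 18.5% and 26.1% of the counts assigned to genes, and in the RNAi nuclear samples 28.3%, 19.5% and 22.4%. The control cytoplasmic sample held 15.1% and the RNAi cytoplasmic samples 14.8% and 19.8%. The highest and lowest nuclear samples thus differed 1.66-fold, and the RNAi and control nuclear groups, at 23.4% ± 4.50 and 25.1% ± 6.17 (SD, n = 3 each), overlapped. In both nuclear groups replicate 1 was highest and replicate 2 lowest, so leaving out 1 sample shifts the groups against each other. RNAi minus control was -4.99 percentage points without control nuclear replicate 2, and the groups still overlapped. Nuclear samples averaged 24.3% against 16.5% in the cytoplasm, a ratio of 1.47, but the lowest nuclear samples lay below RNAi cytoplasmic replicate 2. The cytoplasmic set has replicate 2 of both conditions and no replicate 3, so this ratio is not between matched numbers. Same-numbered nuclear and cytoplasmic samples had 18.5% against 15.1% in control replicate 2. In RNAi cells they had 28.3% against 14.8% in replicate 1 and 19.5% against 19.8% in replicate 2. Counting error was small beside these differences. The 95% Wilson interval of a share reached at most 0.026 percentage points to either side, and it covers counting error only. How many mitochondria stayed with each fraction and how much RNA each held cannot be told apart in these libraries.

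**Figure D1:**
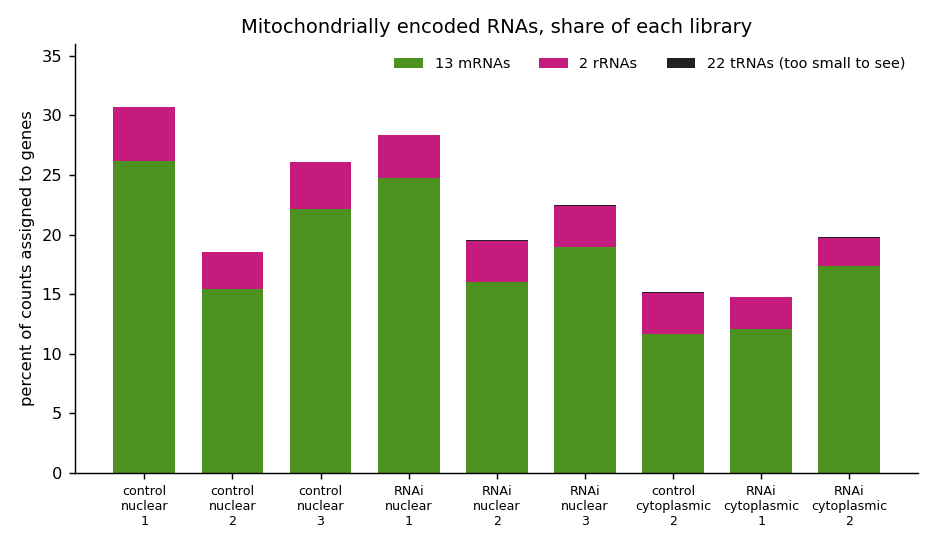
Percent of the counts assigned to genes (vertical axis) that came from the 13 mRNAs, 2 rRNAs and 22 tRNAs of the mitochondrial genome, stacked, in each of the 9 samples. The total runs from 14.8% in RNAi cytoplasmic replicate 1 to 30.7% in control nuclear replicate 1, samples of 1 group differ as much as the groups do, and the mRNAs make up most of every bar.

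In percentage points most of the variation lay in the mRNAs, although the rRNAs and tRNAs also varied relative to their size. The mRNAs took 15.4% to 26.2% of the counts in nuclear samples and 11.7% to 17.4% in cytoplasmic ones. The rRNAs took 3.06% to 4.53% in control nuclei, 3.45% to 3.55% in RNAi nuclei, 3.46% in the control cytoplasm and 2.66% and 2.36% in the RNAi cytoplasm. RNAi nuclear samples thus lay above RNAi cytoplasmic ones for the rRNAs, whereas for the mRNAs these groups overlapped. All 22 tRNAs together held only 0.0111% to 0.0292% of the counts. Within the mitochondrial counts, the mRNAs made up 77.0% to 88.0%, the rRNAs 11.9% to 22.9%, with the highest rRNA part in the control cytoplasmic sample, and the tRNAs 0.0751% to 0.157%. These parts are those of libraries made with a kit for mRNA and not the make-up of mitochondrial RNA in the cells. How far the kit recovers rRNAs and tRNAs was not tested. The estimated length-scaled level (TPM, in which a count is divided by the effective length of its transcript) gave the class 22.6% to 42.8% of all transcripts.

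Per length, the mitochondrial mRNAs were among the most abundant RNAs of these libraries. In nuclei MT-CO3, a subunit of cytochrome c oxidase, had the highest mean TPM of all genes at 53640 (43580 to 66220 over 6 samples). MT-CO1 followed with 41300 and MT-CO2 with 41100, and these encode the other mitochondrial subunits of the same enzyme. Next in nuclei came MT-ATP6, MT-ATP8, MT-ND4L, MT-RNR1, MT-CYB, MT-ND4, MT-ND1, MT-ND6, MT-RNR2, MT-ND3 and MT-ND5, and MT-ND2, a membrane subunit of complex I, was lowest at 4900, which was still rank 18 of all genes. The cytoplasm had another order, with MT-CO2 highest of all genes at 35050 (29660 to 42590 over 3 samples), then MT-ND4L at 29910 and MT-CO3 at 27530. It went on with MT-ATP8, MT-ATP6, MT-ND4, MT-CO1, MT-RNR1, MT-ND1, MT-ND3, MT-RNR2, MT-CYB, MT-ND6 and MT-ND2, and MT-ND5 was lowest at 3316, rank 30 of all genes. MT-CO3 exceeded MT-CO2 in all 6 nuclear samples and was below it in all 3 cytoplasmic ones. Of 14 neighbouring pairs in the order of each fraction, the TPM ranges of 13 overlapped in nuclei and of 13 in the cytoplasm, the pairs apart being MT-RNR2 above MT-ND3 in nuclei and MT-ND2 above MT-ND5 in the cytoplasm. In nuclei 4 pairs kept their order in every sample and in the cytoplasm 5 did, while in the other pairs at least 1 sample had it the other way.

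While the total varied between replicates, the proportions among the 13 mRNAs differed between the fractions. MT-CO1 supplied 26.2% to 31.2% of the mRNA counts in the 6 nuclear samples and 17.2% to 19.1% in the 3 cytoplasmic ones. MT-CYB, the only mitochondrial subunit of complex III, supplied 8.80% to 10.6% against 6.60% to 7.36%, and MT-ND6, the only mRNA of the minus strand, 2.09% to 2.83% against 1.64% to 1.91%. The nuclear samples lay above the cytoplasmic ones for these 3 mRNAs, with no overlap. For 6 others they lay below: MT-ND2, MT-CO2, MT-ATP8, MT-ND3, MT-ND4L and MT-ND4. MT-ND2 supplied 1.86% to 2.23% of the mRNA counts in the nucleus and 3.65% to 4.46% in the cytoplasm, and MT-ND4 9.67% to 12.9% against 15.8% to 19.0%. MT-ND1, MT-ATP6, MT-CO3 and MT-ND5 overlapped. In TPM only 6 of these 9 mRNAs kept their side without overlap: MT-CO1, MT-CYB and MT-ND6 higher and MT-ND2, MT-ND4L and MT-ND4 lower in nuclei. MT-CO2, MT-ATP8 and MT-ND3 then overlapped, and MT-CO3 was higher in nuclei. Of all 16181 genes tested, 27.3% did not overlap between the fractions on the same scale, counts per count of the 13 mRNAs. That background also carries the variation of the class total, which cancels for the members, so the count of 9 of 13 is given as a description.

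Summed by complex, the 7 mRNAs of complex I made up 27.2% to 30.5% of the mRNA counts in nuclear samples and 37.8% to 43.1% in cytoplasmic ones. The 3 mRNAs of complex IV went the other way, with 51.1% to 56.4% against 42.8% to 46.1%. Neither range overlapped between the fractions, nor in TPM, where complex I had 28.3% to 32.1% against 38.5% to 44.8% and complex IV 42.2% to 50.7% against 34.9% to 38.7%. Within complex I, however, MT-ND6 and MT-ND2 lay on opposite sides, in counts and in TPM. Within complex IV so did MT-CO1 and MT-CO2 in counts, where MT-CO2 had 8.20% to 12.9% in nuclei and 13.7% to 13.8% in the cytoplasm, but not in TPM, where MT-CO2 overlapped. Across the 13 mRNAs, the fitted nuclear over cytoplasmic log2 difference in control cells had a Pearson correlation of 0.50 with gene length, 0.44 with GC content and 0.27 with position, as a description over genes that share the same libraries.

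**Figure D2:**
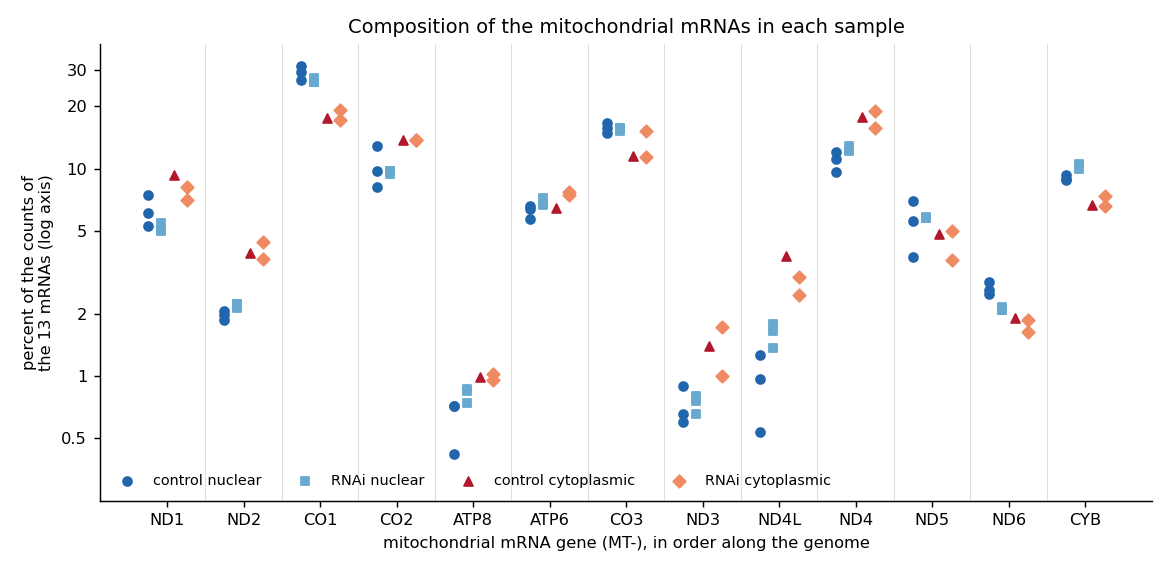
Percent of the counts of the 13 mitochondrial mRNAs (vertical log axis) supplied by each gene, in order along the genome, with 1 point per sample and colour and marker giving the group. MT-CO1, MT-ND6 and MT-CYB are higher in all 6 nuclear samples than in all 3 cytoplasmic ones, and MT-ND2, MT-CO2, MT-ATP8, MT-ND3, MT-ND4L and MT-ND4 are lower.

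Ratios between mRNAs of the same precursor removed the class total. Counts of MT-CYB per count of MT-ND2 were 4.73, 4.52 and 4.51 in control nuclei, 4.88, 4.52 and 4.75 in RNAi nuclei, 1.70 in the control cytoplasm and 1.81 and 1.65 in the RNAi cytoplasm. The mean nuclear ratio was 2.71 times the cytoplasmic one, while the highest and lowest nuclear samples differed 1.08-fold. RNAi and control samples overlapped within the nucleus. MT-CO1 per MT-ND2 was 11.8 to 16.8 in nuclei and 3.85 to 5.24 in the cytoplasm, a ratio of means of 2.99. Within the nucleus this ratio did not overlap between the groups, with 16.8, 13.03 and 14.9 in control and 12.2, 12.4 and 11.8 in RNAi nuclei. Both ratios were chosen for display after their values had been seen.

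The overlapping genes behaved differently. MT-ND4 per MT-ND4L was 9.51, 18.0 and 11.5 in control nuclei, 7.79, 9.04 and 6.83 in RNAi nuclei, 4.71 in the control cytoplasm and 6.33 and 6.39 in the RNAi cytoplasm. MT-ATP6 per MT-ATP8 was 7.99, 15.7 and 8.85 in control nuclei and between 6.55 and 8.95 in the other 6 samples. In both pairs control nuclear replicate 2 had the highest ratio of the 9 samples, with the shorter gene of the pair low. When each pair was summed, MT-ND4L and MT-ND4 together took 10.2% to 14.5% of the mRNA counts in nuclei and at least 18.3% in the cytoplasm, still without overlap, and MT-ATP8 with MT-ATP6 took 6.45% to 8.04% against 7.47% to 8.69%, which overlapped. Without control nuclear replicate 2, the fractions did not overlap for 11 of the 13 mRNAs, MT-ND1 and MT-ND5 being added to the 9.

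**Figure D3:**
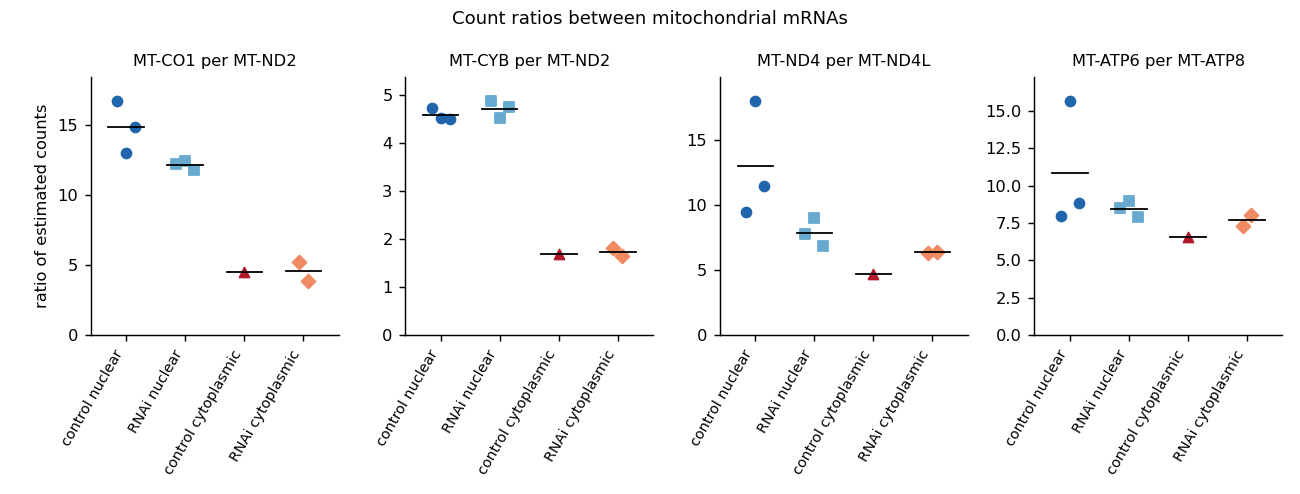
Ratios of estimated counts between mitochondrial mRNAs (vertical axes from 0), with 1 point per sample and a line at the mean of each group. MT-CO1 and MT-CYB per MT-ND2 separate the nuclear from the cytoplasmic samples, and MT-ND4 per MT-ND4L and MT-ATP6 per MT-ATP8 show control nuclear replicate 2 at 18.0 and 15.7, above all other samples.

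The fit over all genes compared the fractions on the scale of the whole library, where the variable total enters the error. A gene was called when its FDR was under 0.1 and its log2 fold change beyond 0.5. In control cells 6 of 29 tested members were called higher in the nuclear fraction and 1 lower, where 50.8% of all genes tested were called, 28% higher and 22.7% lower. Higher were MT-CO1, MT-CO3, MT-ND6, MT-CYB and the tRNAs MT-TS1 and MT-TT, and lower was the tRNA MT-TL1. MT-CO1 had 86280, 36770 and 63800 CPM in control nuclei and 19670 in the control cytoplasm, a log2 fold change of 1.66 (SE 0.45, FDR 0.0113). MT-ND6 had 6881, 3878 and 5649 CPM against 2142 (1.35, SE 0.37, FDR 0.0118), and MT-CYB 24360, 12750 and 19320 against 7460 (1.33, SE 0.43, FDR 0.0259). For MT-CO3 the fit gave 1.33 (SE 0.45, FDR 0.0311). The nuclear samples lay above the cytoplasmic sample in each case. This comparison has 1 cytoplasmic sample, whose spread is assumed to be that of the other groups. The 6 members that were higher kept their call in all 19 alternatives, MT-TL1 lost it in 9, and 11 members were called without RNAi cytoplasmic replicate 1 and also without replicate 2. Without control nuclear replicate 2, MT-CO1 was at 1.94, MT-ND6 at 1.56, MT-CYB at 1.56 and MT-CO3 at 1.54. That leaves out the only nuclear sample with the number of the control cytoplasmic sample, which is also replicate 2. Between these same-numbered samples MT-CO1 had 36770 against 19670 CPM, the smallest difference of the 3 control nuclei. Fraction and replicate number therefore cannot be told apart in control cells.

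In RNAi cells, with 3 nuclear and 2 cytoplasmic samples, 7 members were called higher in the nuclear fraction and 3 lower, where 57.8% of all genes tested were called, 32.9% higher and 24.9% lower. MT-CO1 (64710, 40470 and 47300 CPM in nuclei, 25470 and 35970 in the cytoplasm) was higher by 0.73 on the log2 scale (SE 0.32, FDR 0.0729), and MT-CYB (25830, 14720 and 19010 against 8781 and 15420) by 0.71 (SE 0.32, FDR 0.0733). MT-CO1 did not overlap between the fractions, whereas MT-CYB did, and these calls were lost in 6 and 7 of 19 alternatives. MT-ND2 (5290, 3255 and 4005 against 4862 and 9336) was lower by 0.76 (SE 0.30, FDR 0.0482), although the samples overlapped, and its call was lost in 8 alternatives. MT-ND3, a small subunit of complex I, was lower by 0.79 (SE 0.36, FDR 0.0779), and this turned to 0.13 higher without RNAi cytoplasmic replicate 2. The other calls were tRNAs. Results here rested on single libraries, since 14 members were called higher and none lower without RNAi cytoplasmic replicate 2, 1 higher and 5 lower without RNAi cytoplasmic replicate 1, and 4 higher and 1 lower without RNAi nuclear replicate 3. Scaling by library size alone moved the median of all genes from 0.035 to 0.305 on the log2 scale, and 12 members were then called higher and none lower.

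The median log2 fold change of the 13 mRNAs was 0.42 in control cells and -0.09 in RNAi cells, against 0.04 and 0.03 for all genes, and the RNAi value turned to 0.18 with library size alone. Without control nuclear replicate 2 the control value was 0.69. With the replicate block the medians were 0.33 in control cells and -0.33 in RNAi cells. The RNAi value was -0.35 without RNAi cytoplasmic replicate 1, 0.25 without RNAi cytoplasmic replicate 2, -0.34 without RNAi nuclear replicate 1 and 0.12 without RNAi nuclear replicate 2. For 5 mRNAs on the plus strand (MT-CO2, MT-ATP8, MT-ND1, MT-ND4 and MT-ATP6) neither comparison made a call, with values from -0.43 to 0.83. MT-ND4L was -1.01 (SE 0.59, FDR 0.181) in control cells and -0.57 (SE 0.49, FDR 0.332) in RNAi cells. For MT-ND5, a large subunit of complex I, the fit gave 1.16 (SE 0.56, FDR 0.11) and 0.64 (SE 0.42, FDR 0.209). MT-CO1, MT-CYB and the tRNAs MT-TS1 and MT-TT were called higher in both comparisons.

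**Figure D4:**
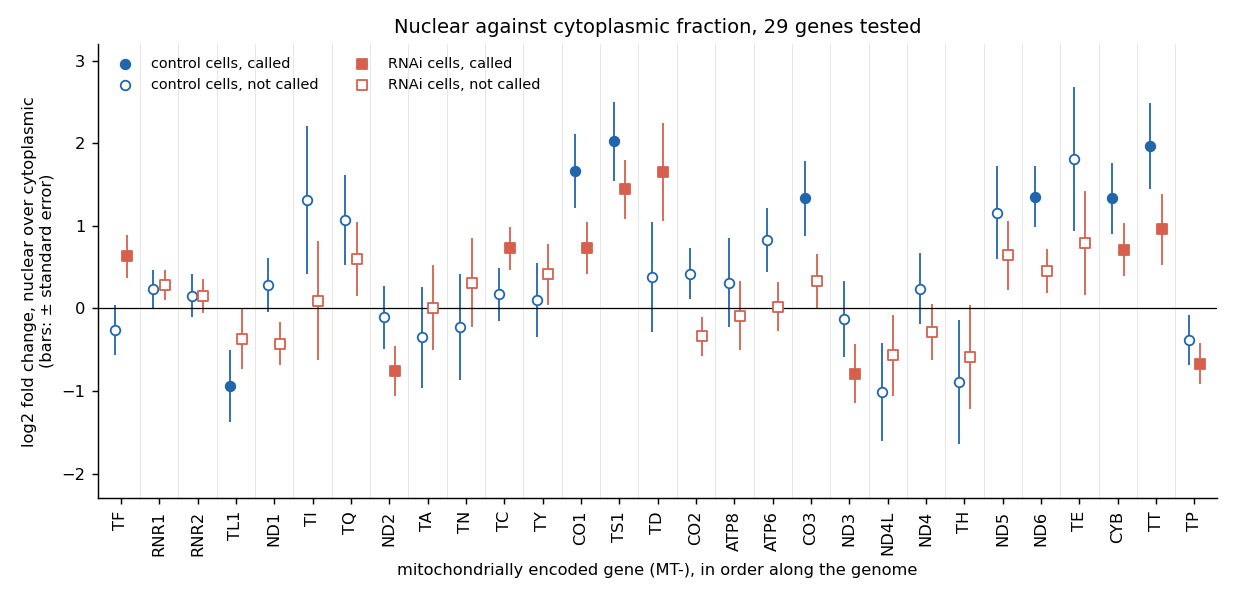
Log2 fold change of the nuclear over the cytoplasmic fraction (vertical axis, bars of 1 standard error to either side) for the 29 tested members in order along the genome, in control cells (circles) and RNAi cells (squares), filled where called. MT-CO1, MT-TS1, MT-CYB and MT-TT are called higher in both, MT-TL1 is called lower in control cells and MT-ND2, MT-ND3 and MT-TP in RNAi cells.

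Neither rRNA was called in any of the 5 comparisons. MT-RNR1, the rRNA of the small ribosomal subunit, had 21800, 13050 and 17910 CPM in control nuclei, 14850 in the control cytoplasm, 15910, 14150 and 14890 in RNAi nuclei and 12480 and 12170 in the RNAi cytoplasm. Nuclear over cytoplasmic log2 fold changes were 0.24 (SE 0.23, FDR 0.41) in control and 0.28 (SE 0.18, FDR 0.205) in RNAi cells. MT-RNR2, the rRNA of the large subunit, gave 0.15 in both, with SE 0.26 and 0.21. Counts of MT-RNR2 per count of MT-RNR1 were 1.08 to 1.20 in control nuclei, 1.20 to 1.25 in RNAi nuclei, 1.24 in the control cytoplasm and 1.33 and 1.34 in the RNAi cytoplasm. The 2 RNAi cytoplasmic samples lay above the 3 RNAi nuclear ones.

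The tRNAs were read at low depth, with 1566 to 4079 counts per sample over all 22, and genes of 59 to 75 bases. MT-TC, MT-TL1 and MT-TN, for cysteine, leucine and asparagine, had the highest mean counts (943, 561 and 420) and together held 59.8% to 70.3% of the tRNA counts. The 8 minus-strand tRNA genes held 65.0% to 79.0% of the tRNA counts, and 6 of the 8 tRNA genes with most counts were on that strand. MT-TS1, for serine, is on the minus strand and occupies the bases that follow the end of MT-CO1. It had 362, 300 and 214 counts in control nuclei, 87 in the control cytoplasm, 359, 133 and 275 in RNAi nuclei and 55 and 94 in the RNAi cytoplasm. Every nuclear sample was above every cytoplasmic one. On the scale of CPM the log2 fold change was 2.02 (SE 0.48, FDR 0.00604) in control and 1.44 (SE 0.36, FDR 0.00599) in RNAi cells, and both calls held in all 19 alternatives.

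MT-TT, for threonine, begins at the base after MT-CYB ends, on the same strand. Its nuclear over cytoplasmic log2 fold change was 1.96 (SE 0.52, FDR 0.0105) in control cells and 0.96 (SE 0.43, FDR 0.0762) in RNAi cells. The mRNAs next to these tRNAs, MT-CO1 and MT-CYB, were themselves higher in the nuclear fraction in both comparisons, and a read that runs past the end of an mRNA cannot be told apart from one of the neighbouring tRNA in these counts. MT-TL1, which lies between MT-RNR2 and MT-ND1, had 60.4 CPM in the control cytoplasm and 36.8, 27.6 and 29.9 in control nuclei and was lower by 0.94 (SE 0.43, FDR 0.094). In RNAi cells MT-TF (0.63), MT-TC (0.73) and MT-TD (1.65) were called higher and MT-TP lower (-0.67), with FDR of 0.0612, 0.0308, 0.0314 and 0.0365. MT-TD rested on 2 to 27 counts per sample. MT-TI, MT-TQ, MT-TE, MT-TA, MT-TY and MT-TH were past the filter too and were called in neither comparison. In control and RNAi cells MT-TI was at 1.31 and 0.09, MT-TQ at 1.07 and 0.60, and MT-TE at 1.81 and 0.79. MT-TA was at -0.35 and 0.01, MT-TY at 0.10 and 0.41, and MT-TH at -0.89 and -0.59. Their standard errors ran from 0.37 to 0.90. Of all genes tested, 48.4% did not overlap in CPM between the 6 nuclear and 3 cytoplasmic samples, against 3 of 29 members: MT-CO1 and MT-TS1, which were higher in nuclei, and MT-TP, which was lower.

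After RNAi, no member was called in the nuclear fraction, where 4.9% of all genes tested were called, 2.48% higher and 2.42% lower. MT-CO1 was 86280, 36770 and 63800 CPM in control and 64710, 40470 and 47300 in RNAi nuclei, a log2 fold change of -0.29 (SE 0.28, FDR 0.597). MT-CYB was 24360, 12750 and 19320 in control and 25830, 14720 and 19010 in RNAi nuclei (0.08, SE 0.28, FDR 0.91). RNAi and control samples overlapped in both. The 13 mRNAs ran from -0.44 for MT-ND6 (SE 0.24, FDR 0.329) to 0.55 for MT-ND4L (SE 0.44, FDR 0.514), with 6 positive, 7 negative and a median of -0.01, beside a median of 0.00 for all genes. The side followed the library left out, although no member was called in any of these cases. Without control nuclear replicate 2 the median was -0.24 and without RNAi nuclear replicate 1 -0.26, with 12 of the 13 mRNAs negative in each. Without control nuclear replicate 1 it was 0.21 and without RNAi nuclear replicate 2 0.19, with 10 positive in each. Replicate 1 had the highest and replicate 2 the lowest class share in both nuclear groups. Leaving out 1 sample of a number therefore shifts the groups against each other. With the replicate block, which keeps all samples, the median was -0.01. DESeq2 called 1 member in this comparison and limma on log2(TPM + 1) none. MT-RNR1 was -0.23 (SE 0.16) and MT-RNR2 -0.16 (SE 0.19).

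Of the 29 members, 1 had an unadjusted p under 0.05 in the nuclear comparison. This was MT-TT, with 9.20, 8.52 and 6.46 CPM in control and 4.59, 2.97 and 4.29 in RNAi nuclei, so that the groups did not overlap. Its log2 fold change was -1.02 (SE 0.32, FDR 0.11), which missed the threshold, and the FDR was between 0.000417 and 0.1 in 5 of 19 alternatives in which it was called. The only other member without overlap in CPM was MT-TF, for phenylalanine, at 4.81, 4.36 and 5.49 CPM in control and 6.05, 5.75 and 5.81 in RNAi nuclei (0.27, SE 0.22, FDR 0.527). Such separation was found for 28.1% of all genes tested, against 2 of 29 members.

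The proportions among the mRNAs, from which the class total drops out, were also compared between RNAi and control nuclei. Of the 13 mRNAs, 7 did not overlap between the 3 RNAi and 3 control nuclear samples, 6 with a larger share after RNAi (MT-ND2, MT-ATP8, MT-ATP6, MT-ND4L, MT-ND4 and MT-CYB) and MT-ND6 with a smaller one. On this scale 6.66% of all genes tested did not overlap, with the same reserve that their values carry the class total. MT-CYB supplied 8.80%, 9.31% and 8.92% of the mRNA counts in control and 10.44%, 10.02% and 10.58% in RNAi nuclei. MT-ND6 supplied 2.49%, 2.83% and 2.61% in control and 2.15%, 2.09% and 2.09% in RNAi nuclei. MT-ND4L, at 1.27%, 0.535% and 0.973% against 1.65%, 1.36% and 1.78%, was widest in the control group, where replicate 2 was lowest. MT-CO1, the largest share, overlapped at 26.9% to 31.2% against 26.2% to 27.6%. The 6 larger and 1 smaller shares kept their side when control nuclear replicate 2 was left out, and 2 more mRNAs, MT-ND3 (larger) and MT-CO1 (smaller), then did not overlap. In TPM, 3 shares (MT-ATP8, MT-ND4L and MT-CYB) were larger and 2 (MT-ND1 and MT-ND6) smaller. Genes of the overlapping pairs MT-ATP8/MT-ATP6 and MT-ND4L/MT-ND4 share bases and were counted separately here. With each pair summed, 4 shares were larger (MT-ND2, MT-CYB and both pairs) and 1 (MT-ND6) smaller. Shares of a whole are not independent of each other, and no test was made on them.

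**Figure D5:**
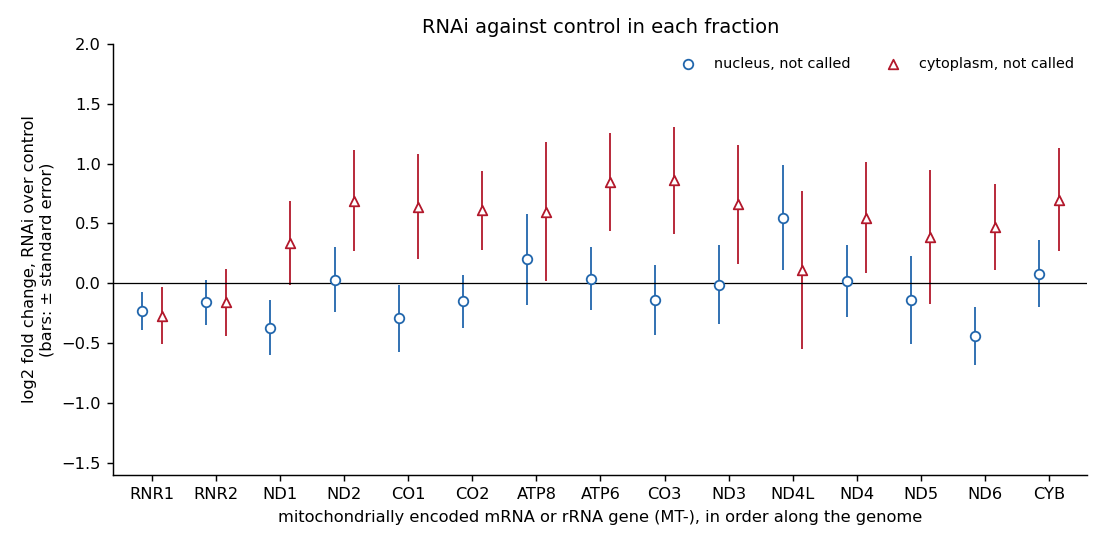
Log2 fold change of RNAi over control (vertical axis, bars of 1 standard error to either side) for the 13 mitochondrial mRNAs and 2 rRNAs, in the nucleus (circles) and the cytoplasm (triangles), where open symbols mark that none was called. Nuclear values lie on both sides of 0, from -0.44 to 0.55, and all cytoplasmic mRNA values are above 0, from 0.11 to 0.86, with standard errors of 0.33 or more.

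In the cytoplasm, where 24.6% of all genes tested were called (10.4% higher and 14.2% lower), no member was called either, and none had an unadjusted p under 0.05 with edgeR, while DESeq2 called 0 and limma on log2(TPM + 1) called 1 lower. The control cytoplasmic sample had 7261 CPM of MT-ATP6 and the RNAi cytoplasmic samples 9920 and 16190, a log2 fold change of 0.85 (SE 0.41, FDR 0.175), the lowest FDR of the members. MT-CO3 had 12970 against 15140 and 31990 (0.86, SE 0.45, FDR 0.209). The 2 RNAi samples were themselves apart, and replicate 2 was the higher for all 13 mRNAs. The mRNAs were positive in all 13 cases, with a median of 0.61 beside 0.01 for all genes, and 12 of 13 were positive with library size alone (median 0.34, with all genes at -0.236). Without RNAi cytoplasmic replicate 1, 7 members were called higher (median of the mRNAs 0.87), and without replicate 2, 4 were called lower (median 0.19), so the outcome followed the library that was kept. MT-RNR1 (-0.27, SE 0.24) and MT-RNR2 (-0.16, SE 0.28) were negative.

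The change of the nuclear/cytoplasmic ratio after RNAi, which combines all 4 groups, called no member, where 18.2% of all genes tested were called, 10.4% higher and 7.88% lower. None had an unadjusted p under 0.05 with edgeR, DESeq2 called 0 members and limma on log2(TPM + 1) called 1 higher. MT-CO3 had the lowest value of the mRNAs, a 0.499-fold ratio (SE 0.54 on the log2 scale, FDR 0.253), and the lowest FDR of an mRNA was that of MT-ND6 (-0.90, SE 0.44, FDR 0.208). MT-CO1 was at -0.94 (SE 0.52, FDR 0.272), and MT-ND4L alone was positive at 0.44 (SE 0.79). The median over the 13 mRNAs was -0.67, beside -0.05 for all genes, and the rRNAs were at 0.04 and 0.00. This median was -0.27 without RNAi cytoplasmic replicate 2, -1.05 without RNAi cytoplasmic replicate 1 and -0.35 with library size alone, where that of all genes was 0.233. All these values share the single control cytoplasmic sample, and 4 members were called lower without RNAi cytoplasmic replicate 1, 5 higher without RNAi cytoplasmic replicate 2 and 2 lower without control nuclear replicate 2.

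The nuclear genes that act on mitochondrial RNA were taken from lists by function. Of 13 genes for transcription and maintenance of mitochondrial DNA, none was called in RNAi against control nuclei, with 4 at an unadjusted p under 0.05 in edgeR and 0 called by DESeq2 or limma, and the median was 0.11. The ratio change called 1 of them, TFAM, the factor that packages mitochondrial DNA and takes part in starting its transcription. TFAM had 17.4 CPM in the control cytoplasm and 5.92 and 6.89 in the RNAi cytoplasm, with 5.84 to 7.86 in all 6 nuclear samples, and its ratio change was 1.41 (SE 0.30, FDR 0.0161). The difference lay in the single control cytoplasmic sample. Of 22 genes for processing, modification and decay of mitochondrial RNA, 1 was called higher in RNAi nuclei, MRM3, a methyltransferase of the large mitochondrial rRNA, at 15.9, 21.3 and 18.8 CPM in control and 25.2, 33.4 and 31.2 after RNAi (0.68, SE 0.18, FDR 0.0617). The call of MRM3 was lost in 9 of 19 alternatives.

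In the ratio change 5 of these 22 genes were called higher and 1 lower, where 10.4% of all genes tested were called higher and 7.88% lower. DESeq2 called 2 higher and 1 lower, and limma on log2(TPM + 1) 3 higher and 0 lower. TRMT10C, a subunit of the enzyme that cuts tRNAs at their 5′ ends, was at 1.28 (SE 0.35, FDR 0.0426), with 12.3 CPM in the control cytoplasm and 4.28 to 6.56 in the other 8 samples. LRPPRC, which binds and stabilises mitochondrial mRNAs, was at 0.74 (SE 0.17, FDR 0.0237), with 122.2 CPM in the control cytoplasm and 61.55 to 75.01 elsewhere. In both, the control cytoplasmic sample lay above the other 8. The other calls were PNPT1 (0.98, FDR 0.0739), an exoribonuclease, FASTKD2 (0.83, FDR 0.0707), FASTKD5 (0.59, FDR 0.0954) and, lower, FASTK (-0.63, FDR 0.0555), of a family that acts on mitochondrial RNA. Their calls were lost in 11, 12, 13 and 9 of 19 alternatives, that of TRMT10C in 1 and that of LRPPRC in 0. These 6 genes were named after their values were seen.

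The nuclear-encoded subunits of the respiratory chain, partners of the mitochondrial subunits in the same complexes, were compared with the same fit. Of 78 tested, 29 were called lower in the nuclear fraction of control cells and 4 higher, and 37 lower and 5 higher in RNAi cells. Of all genes tested, 22.7% were called lower and 28% higher in control cells, and 24.9% lower and 32.9% higher in RNAi cells. The medians of the 78 were -0.35 and -0.51, beside 0.42 and -0.09 for the 13 mitochondrial mRNAs. In RNAi against control nuclei 2 were called lower, NDUFA4 (-0.65, SE 0.20, FDR 0.0992) and NDUFB6 (-0.81, SE 0.23, FDR 0.0768), a subunit of complex I. These calls were lost in 14 and 11 of 19 alternatives, and 2.42% of all genes tested were called lower there. The ratio change called 2 lower, COX8A of complex IV (-0.82, FDR 0.0759) and NDUFV1 of complex I (-0.64, FDR 0.0965), named after their values were seen, with the calls lost in 10 and 15 alternatives. The summed level of the 78 was 7362 to 9781 CPM in nuclear samples and 9637 to 11670 in cytoplasmic ones.

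The nuclear genome holds copies of mitochondrial sequence, and reads that match both cannot be told apart. Of 394 pseudogenes and MTRNR2L genes listed, 114 had counts and 10 passed the filter. MTATP6P1, on chromosome 1, held 95.9% of their counts, with a mean of 17250, and its counts were 9.62% to 12.6% of those of MT-ATP6 in each sample. MTND2P28 (mean 287) and MTND4P12 (mean 90.3) followed. All together came to 0.518% to 0.859% of the mitochondrial counts, and the level of MT-ATP6 is uncertain by the part given to MTATP6P1.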

How the data were processed

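RNA of nuclear and cytoplasmic fractions was sequenced with a Lexogen SENSE mRNA library kit. The authors trimmed reads with cutadapt and quantified transcripts with salmon against Ensembl v75 (hg19), whose versions and strand setting are not given in the sources used here. They deposited an estimated count per transcript, not normalised, and TPM, which salmon divided by effective length and scaled to a common total.

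Of 215170 transcripts, 183122 (85.1%) were matched without version to GENCODE v44 lifted to GRCh37, and the counts of a gene's transcripts were added and rounded. Genes with at least 10 counts in at least 3 samples (16181) were fitted with edgeR 4.0.16 in R 4.3.3: TMM, 4 groups, quasi-likelihood test, 5 residual degrees of freedom, Benjamini-Hochberg FDR under 0.1 and a log2 fold change beyond 0.5. The single control cytoplasmic sample took its spread from the other groups. Standard errors are the log2 fold change divided by the square root of F. Depth was 11627403 to 19036141 counts, at which 3 counts are 0.19 to 0.303 CPM. Shares and proportions were computed from the summed counts and have no test. On simulated counts for RNAi against control nuclei, 98% of 200 changed genes among 16181 were found, and 8.4% of the genes found were unchanged. The changes set were large, with a median estimate of 1.94 on the log2 scale for the raised genes. All genes had the same fixed spread, without the shared variation of the mitochondrial total. The 98% therefore does not give the share that would be found among the members or for changes near 0.5.

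Members, lists and tests were chosen with earlier results of these data known. Named were all mRNAs and rRNAs, the tRNAs past the filter, the 3 pseudogenes with the highest counts, both siRNA targets, and of each list up to 4 genes called in the nucleus or, failing that, in the ratio change. The other listed genes called in the ratio change were named after their values were seen. The alternatives were DESeq2 size factors, library size only, scaling without mitochondrial genes, the DESeq2 1.42.0 Wald test, no filter, a length offset, a replicate block, unmatched transcripts kept, limma 3.58.1 on log2(TPM + 1) and log2(TPM + 0.1), an FDR of 0.05 and leaving out each sample but the control cytoplasmic one. Sequences were read from GRCh37.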

Additional observations from a re-analysis of the deposited data

Results flagged for a closer look

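No group had 4 samples, so no sample could be checked as an outlier within its group. No mitochondrially encoded gene had a nuclear/cytoplasmic ratio that differed between RNAi and control cells past the threshold of the edgeR quasi-likelihood test. Among the nuclear genes named, the test of the difference itself was passed by TFAM (log2 ratio change 1.41, FDR 0.0161), TRMT10C (1.28, FDR 0.0426), LRPPRC (0.74, FDR 0.0237) and WTAP (0.89, FDR 0.0326), a target of the siRNAs. It was also passed by PNPT1 (0.98), FASTKD2 (0.83), FASTKD5 (0.59), FASTK (-0.63), COX8A (-0.82) and NDUFV1 (-0.64), with FDR of 0.0555 to 0.0965. Among the marker genes, KCNQ1OT1 (1.58), MALAT1 (1.33) and NEAT1 (0.84) of the nuclear RNAs, LIN28B (1.28) of the cell line and COL1A1 (-0.73) passed it too. For TFAM, TRMT10C and LRPPRC the control cytoplasmic sample lay above the other 8 samples, and since that group has 1 sample, the sample and the condition cannot be told apart.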

How the results depend on the processing

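The count of members called depended on the processing in each of the 5 comparisons, and where no cause follows from the setting itself the cause was not tested. In RNAi against control nuclei it was 0, but 1 with the DESeq2 Wald test, 2 without a filter on low counts and 1 with the replicate block. In the cytoplasm it was 0, but 1 with library size only and with limma on log2(TPM + 1) or log2(TPM + 0.1), and 9 without a filter. For nucleus against cytoplasm in RNAi cells it was 10, but 5 with the Wald test, 16 without a filter, 6 with the length offset, 5 with unmatched transcripts kept and 5 at an FDR of 0.05. In control cells it was 7, but 11 with library size only and 13 without a filter. For the ratio change it was 0, but 1 with library size only and with either limma fit, and 12 without a filter. Leaving out 1 sample gave 0 to 1, 0 to 7, 5 to 14, 6 to 11 and 0 to 5 calls in these 5 comparisons, in that order, and the log2 fold change of MT-ND3 in RNAi cells ran from -1.34 to 0.13, the latter without RNAi cytoplasmic replicate 2. Scaling without mitochondrial genes and DESeq2 size factors gave the counts reported. The difference in class share, in percentage points, was -4.99 to 1.12 for RNAi minus control nuclei when 1 sample was left out, 3.68 to 8.68 for nucleus minus cytoplasm in RNAi cells, 7.18 to 13.3 in control cells and -0.379 to 4.62 for RNAi minus control cytoplasm, and it was 3.39 in control cells with the replicate block, which leaves 1 pair. The mRNAs whose shares did not overlap numbered 9 to 11 between fractions and 7 to 9 between RNAi and control nuclei when 1 sample was left out. In TPM 4 were higher and 3 lower in nuclei than in the cytoplasm, and 3 larger and 2 smaller after RNAi. With overlapping pairs summed, 3 were higher and 4 lower in nuclei, and 4 larger and 1 smaller after RNAi. Same-numbered control and RNAi nuclear samples had correlations of 0.183, 0.108 and 0.043 in their deviations, over genes outside the mitochondrial genome. Different numbers had a mean of -0.056. The class share was highest in replicate 1 and lowest in replicate 2 of both nuclear groups. The study's methods give no pairing and the main fit used none, so whether the numbers pair samples was not settled. Under the replicate block 7 and 9 members were called between fractions in RNAi and control cells. Over all genes tested, the block raised the calls in RNAi against control nuclei from 401 to 550 higher and from 392 to 486 lower. All other alternatives to these counts and differences stayed within 1.5 times the count or within the spread between replicates. Depth limits the tRNAs, where 3 counts are 0.19 to 0.303 CPM, and the single control cytoplasmic sample limits every comparison that uses it.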
